A study of Mus musculus with 9 samples.

Results

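Stefins, cystatins and cathepsins form a set of protease inhibitors and lysosomal proteases, described here in mouse gut mesenchyme exposed to hedgehog ligands. The members were all probe sets whose single gene symbol in the platform annotation was Stfa3, Stfa2, Cstb, Cst3, Ctsb, Ctsd, Ctsk, Ctsl, Ctss or Ctsz. This gave 17 of the 45101 probe sets on the array and 9 of the 18193 genes measured. Stfa2 had no probe set listed under its symbol alone and has no value here. The set was chosen by the measured difference of Stfa3 from Vehicle, which was large, so the members' differences from Vehicle are given as a description, without p-values.

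Cathepsins are proteases that work mainly in the acid lumen of lysosomes, where they break down proteins taken up or recycled by the cell. Ctsb, Ctsk, Ctsl, Ctss and Ctsz encode cysteine proteases, whereas Ctsd encodes an aspartic protease. Stefins and cystatins are small proteins that block cysteine cathepsins by plugging the active site. Stefins stay inside the cell, and cystatin C, the product of Cst3, is secreted. Macrophages are rich in these proteases, and mouse stefin A genes are known for expression in myeloid cells.

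The samples were cultures of small intestinal mesenchyme, the connective tissue and muscle precursor layer of the gut, from C57Bl/6J mouse embryos at E18.5, with the epithelium removed. All groups shared this strain, age and culture of 48 h, and were then exposed for 24 h to the ligand Shh (Sonic hedgehog), the ligand Ihh (Indian hedgehog) or Vehicle, with 3 arrays each. Each treatment had 6 wells, drawn at random into 3 pools, so a replicate is a pool of wells and the errors and p-values measure the spread between pools. The sources used here give neither the amount of ligand nor what the Vehicle contained. The study asked which mesenchymal genes hedgehog signalling regulates.

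The members' genes were looked up in RefSeq (GRCm38.p6), where Stfa3 and Stfa2 lie next to other stefin-like genes in a cluster of 11 on chromosome 16. Of these 11, only Csta1, Stfa2l1 and Stfa3 had a probe set of their own symbol, 4 were listed only on probe sets with several symbols and 4 on none. Ctsk and Ctss are neighbours on chromosome 3, with 0 protein-coding genes between them. The 250 bases before the RefSeq start were read for 8 of the 10 members, and Cstb and Ctsb had no entry. The stretches of Stfa3, Stfa2 and Stfa2l1 are shown because these copies are alike in sequence and Stfa3 differed from Vehicle by more than 2-fold. Of the other copies shown only Stfa2l1 was measured, below the array median on all 9 arrays, where a fall could hardly be seen. Capitals in Stfa2 and Stfa2l1 mark bases that differ from the aligned Stfa3 base or face a gap. The Ctsd stretch is shown because Ctsd was the cathepsin with the largest difference from Vehicle among the probe sets that stand for a member gene, and its capitals mark matches to CACGTG, the E-box read by lysosomal gene regulators such as TFEB.
Stfa3, chr16:36455393-36455642 (minus strand): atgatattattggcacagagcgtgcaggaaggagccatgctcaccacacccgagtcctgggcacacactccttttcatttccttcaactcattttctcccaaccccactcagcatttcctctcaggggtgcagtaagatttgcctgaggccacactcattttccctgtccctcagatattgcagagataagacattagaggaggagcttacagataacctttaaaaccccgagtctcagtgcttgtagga
Stfa2, chr16:36408364-36408613 (minus strand): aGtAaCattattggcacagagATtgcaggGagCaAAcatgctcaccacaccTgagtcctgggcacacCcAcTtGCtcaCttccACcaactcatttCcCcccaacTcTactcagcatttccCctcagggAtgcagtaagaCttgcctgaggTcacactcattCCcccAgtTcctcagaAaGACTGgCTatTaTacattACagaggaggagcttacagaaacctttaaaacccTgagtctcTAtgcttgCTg
Stfa2l1, chr16:36156561-36156810 (plus strand): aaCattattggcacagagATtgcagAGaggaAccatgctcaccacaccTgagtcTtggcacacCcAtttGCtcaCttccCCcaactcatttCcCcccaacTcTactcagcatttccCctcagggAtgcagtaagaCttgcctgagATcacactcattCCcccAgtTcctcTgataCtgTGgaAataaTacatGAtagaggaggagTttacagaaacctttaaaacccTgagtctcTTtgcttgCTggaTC
Ctsd, chr7:142387828-142388077 (minus strand): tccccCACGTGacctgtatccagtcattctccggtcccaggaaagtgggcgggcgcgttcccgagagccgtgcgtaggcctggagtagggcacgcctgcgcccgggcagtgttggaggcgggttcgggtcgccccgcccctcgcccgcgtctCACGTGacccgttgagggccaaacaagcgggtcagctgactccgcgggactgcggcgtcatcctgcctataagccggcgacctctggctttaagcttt
All stretches are from RefSeq, 5′ to 3′ on the gene's strand. Over a pairwise alignment, Stfa2 was identical to Stfa3 at 80.2% of positions, Stfa2l1 at 80.5% and Stfa1 at 83.1%, whereas Csta1, at the far end of the cluster, was identical at 38.5% and Cst3, outside it, at 35.6%. How far the Stfa3 probes also bind transcripts of such copies was not tested.

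Motifs were searched as letters on both strands of these windows, as a description. CACGTG was present in 2 of 8 member windows (Ctsd and Ctsl), against 6.02% of 32851 windows of the same length. In Ctsd it occurred from base 98 to base 93 and from base 245 to base 240 before the start. A C/EBP motif (TTGCNNAA) was in 2 of 8 (Ctsk and Ctsl, 9.56% of all windows). The letters of a TATA box (TATAAA) were in 1 of 8 (Ctss, 12.4%). In Ctss they lay on the opposite strand, from base 233 to base 228 before the start, so only the letters match. The letters of AP-1 (TGANTCA, 6.75% of all windows), PU.1 (GAGGAAGT, 2.44%), GLI (TGGGTGGTC, 0.225%) and the NF-kB motif (3.9%) were in 0 of the 8 member windows. The C/EBP and E-box matches in Ctsl did not overlap.

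Values are log2 expression per probe set, on a scale where a difference of 1 is a doubling. Array medians lay between 5.87 and 5.92, and Pearson's r between arrays, across probe sets, was 0.991 to 0.998. Values well below the medians are compressed towards background, so differences of genes that reach there may be understated. Levels of different probe sets are not comparable with each other. Ptch1, which encodes the receptor for both ligands and is switched on by them, lay at 9.06 to 9.25 with Vehicle and 10.35 to 10.98 on the treated arrays. The 7 fibroblast and 6 smooth muscle markers fixed for the check of tissue lay above the array median on every array. Markers of intestinal epithelium were also present and varied within groups, with a list mean of -1.14 to 1.16 relative to the Vehicle mean on Vehicle arrays and -1.13 to 1.25 on treated ones. The ratio of 3′ to 5′ Gapdh signal, a sign of RNA integrity, was -0.08 to 0.03 log2 with Vehicle and -0.19 to -0.04 on the treated arrays, 5 of 6 of which lay below every Vehicle array. Female and male embryos were not spread evenly over the pools. Xist, expressed in females, was 10.83, 6.34 and 6.48 with Vehicle, 11.31, 11.24 and 6.43 with Shh and 10.04 to 10.66 with Ihh. Eif2s3y, carried on the Y chromosome, was 6.24, 8.66 and 8.98 with Vehicle, 3.24, 3.17 and 8.44 with Shh and 8.51, 7.54 and 7.74 with Ihh. Vehicle 1 and the Ihh arrays thus carried both signals. The part of RNA integrity or of sex in the members' values was not tested. The number of arrays limited the precision.

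Among the inhibitors, Stfa3, an intracellular stefin of myeloid cells, was lower on every treated array. It lay at 6.86, 5.57 and 6.85 on Vehicle arrays 1 to 3, at 4.05, 4.18 and 4.11 with Shh and at 4.0, 3.79 and 3.81 with Ihh. The groups did not overlap, and the array of Vehicle 2 stood more than 1 log2 unit below the other Vehicle arrays. Means were 6.43 ± 0.74 for Vehicle, 4.11 ± 0.07 for Shh and 3.87 ± 0.11 for Ihh (SD, n = 3). The treated values and that of Vehicle 2 were below the array medians, so the difference for both ligands together, -2.44 ± 0.24 log2 (SE, 5.42-fold), may be understated. It was the 6th largest fall among 18193 genes, which is what brought the set to notice, so it may also be overstated. Without Vehicle 2 the difference was -2.86. On the 3 arrays with low Xist, Vehicle 2, Vehicle 3 and Shh 3, Stfa3 was 5.57, 6.85 and 4.11. Only Shh 3 of these was treated and none was an Ihh array. They cannot show the part of sex, which was not tested.

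The other 2 measured inhibitors, both more broadly expressed, stayed within narrow limits. Cstb, the stefin B gene, whose protein protects the cytosol from leaked cathepsins, lay at 12.45, 12.40 and 12.56 with Vehicle, 12.44, 12.49 and 12.48 with Shh, and 12.33, 12.25 and 12.42 with Ihh on its brighter probe set. The Vehicle and treated arrays overlapped, and the difference for both ligands was -0.07 ± 0.06 log2 (SE). Its second probe set differed by -0.15. Cst3, the secreted inhibitor cystatin C, lay at 11.85, 11.96 and 11.84 with Vehicle, 11.83, 11.79 and 11.80 with Shh, and 11.95, 12.03 and 11.88 with Ihh. Its groups overlapped as well, with a 95% interval of the difference for both ligands of -0.12 to 0.11 log2. The corresponding interval of Cstb was -0.19 to 0.06 log2.

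**Figure D1:**
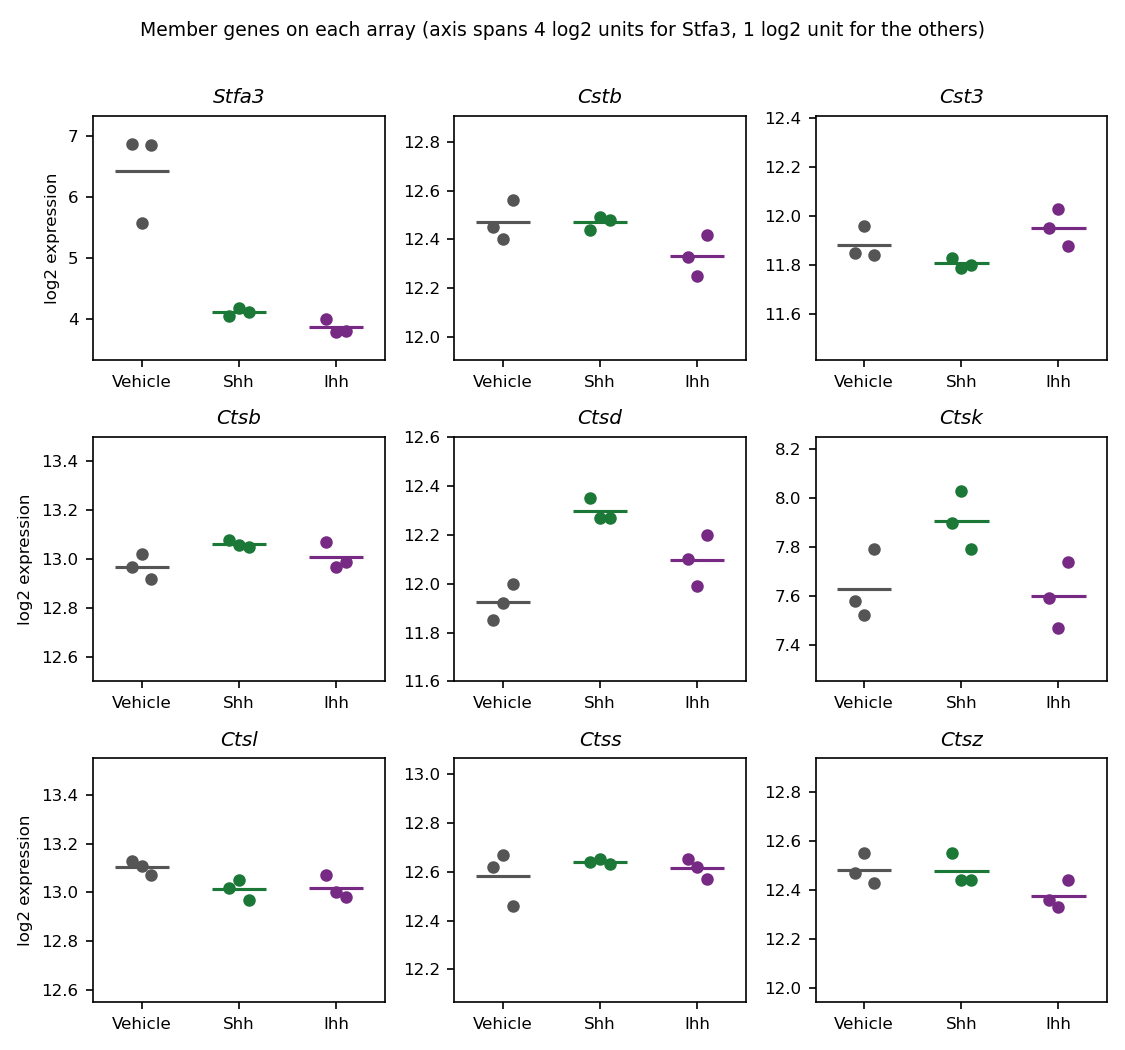
Log2 expression (vertical axis) of the 9 measured member genes on each array by treatment; points are arrays, lines are group means of 3. Stfa3 lay at 5.57 to 6.86 with Vehicle and 3.79 to 4.18 with the ligands, on an axis 4 times as wide as the others.

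Ctsd, the aspartic protease that works beside the cysteine cathepsins in lysosomes, was higher with Shh. It lay at 11.85, 11.92 and 12.00 with Vehicle, at 12.35, 12.27 and 12.27 with Shh and at 12.10, 11.99 and 12.20 with Ihh. The Shh arrays all stood above the Vehicle arrays, while Ihh 2 fell just below Vehicle 3. The difference from Vehicle was 0.38 ± 0.07 log2 with Shh (1.3-fold) and 0.18 ± 0.07 with Ihh (SE). For both ligands together it was 0.28 ± 0.06.

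Ctsb encodes a cysteine protease with both endopeptidase and exopeptidase activity, and 5 probe sets measured it. The brightest, at 12.97, 13.02 and 12.92 with Vehicle and 12.97 to 13.08 on the treated arrays, differed by 0.07 ± 0.05 log2 (SE) for both ligands. The other 4 differed by 0.20, 0.31, 0.27 and 0.21, all in the same direction and all larger. The probe set at 0.31 lay at 9.96, 9.92 and 9.92 with Vehicle, 10.41, 10.23 and 10.29 with Shh and 10.20, 10.08 and 10.22 with Ihh, without overlap. The probe sets of Ctsb therefore differed in size, and taking the mean of all 5 gave 0.21 in place of 0.07. The cause of the disagreement was not tested.

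Ctsl, a lysosomal endopeptidase, also gave unlike sizes on its 2 probe sets. The brighter lay at 13.13, 13.11 and 13.07 with Vehicle and at 12.97 to 13.07 on the treated arrays, a difference of -0.09 ± 0.05 log2 (SE) for both ligands. The dimmer lay at 7.14, 6.87 and 6.91 with Vehicle, at 6.59, 6.51 and 6.48 with Shh and at 6.78, 6.76 and 6.48 with Ihh, a difference of -0.38. On both probe sets the treated arrays lay below the lowest Vehicle array, on the brighter by less than the rounding shown.

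Ctss, the protease that trims the invariant chain during antigen presentation, lay at 12.62, 12.67 and 12.46 with Vehicle and between 12.57 and 12.65 on the treated arrays. Its treated arrays sat inside the Vehicle range, and the 95% interval of the difference for both ligands was -0.08 to 0.17 log2. Ctsz, a carboxypeptidase, lay at 12.47, 12.55 and 12.43 with Vehicle, 12.55, 12.44 and 12.44 with Shh and 12.36, 12.33 and 12.44 with Ihh on its brightest probe set, with overlap. Its 3 probe sets differed by -0.06, -0.14 and -0.08 for both ligands.

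Ctsk, the collagen-degrading cathepsin best known from osteoclasts and also made by fibroblasts, was measured by 1 probe set. It lay at 7.58, 7.52 and 7.79 with Vehicle, at 7.90, 8.03 and 7.79 with Shh and at 7.59, 7.47 and 7.74 with Ihh. The Shh arrays stood at or above the highest Vehicle array and the Ihh arrays within or just under the Vehicle range. The difference from Vehicle was 0.28 ± 0.10 log2 with Shh and -0.03 ± 0.10 with Ihh (SE).

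**Figure D2:**
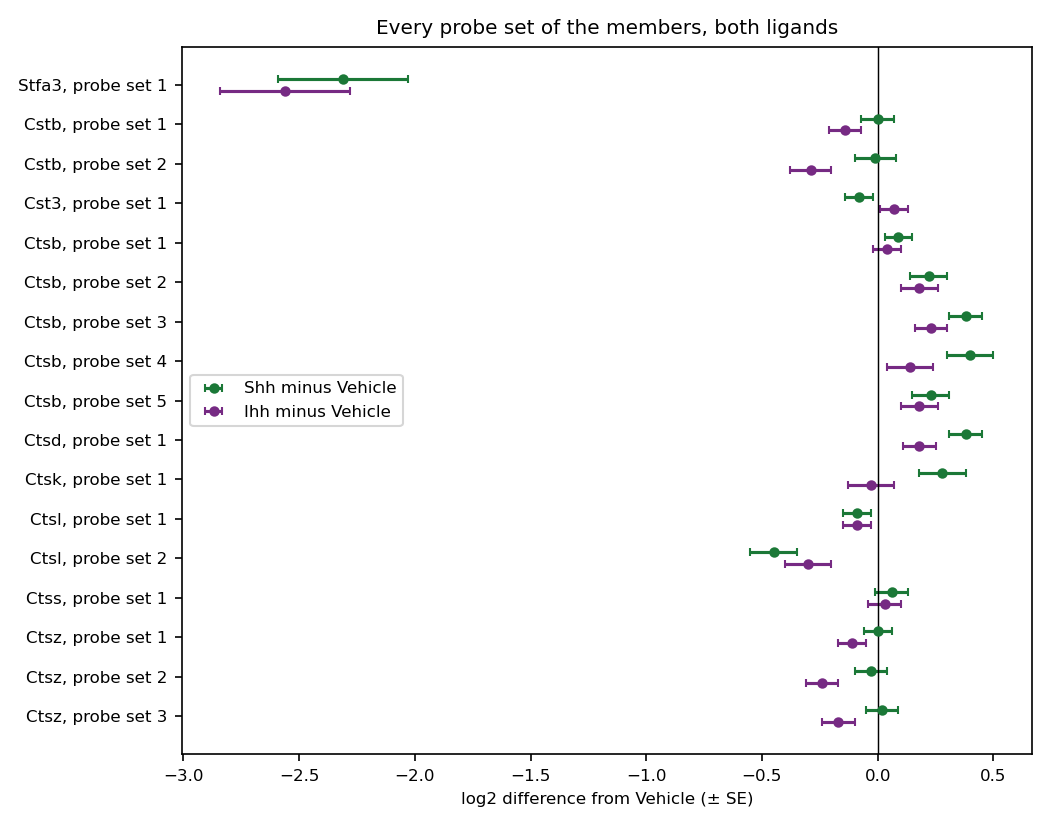
Log2 difference from Vehicle (horizontal axis, bars ± SE of the limma fit over all probe sets) of the 17 member probe sets, Shh in green and Ihh in purple. Stfa3 stands at -2.31 and -2.56, and the other 16 probe sets lie between -0.45 and 0.40.

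Counted with limma over all genes (Benjamini-Hochberg adjusted p under 0.05), 1 of the 9 members, Stfa3, was called for both ligands against Vehicle, where 1.51% of all genes were called (0.434% higher and 1.07% lower). Against Vehicle, Shh alone gave 2 of 9, Stfa3 lower and Ctsd higher (1.73% of all genes, 0.489% higher and 1.24% lower). Ihh alone gave Stfa3 (0.649%, 0.192% higher and 0.456% lower). Over every probe set singly 2 of 17 were called for both ligands (0.804% of all probe sets), Stfa3 and the Ctsb probe set at 0.31. Shh alone gave these and Ctsd, 3 of 17 (0.946%), and Ihh alone gave Stfa3 (0.284%). The call of Ctsd with Shh ended without Shh 1, 2 or 3 or without Vehicle 1 or 2. The comparisons with Shh and Ihh share the Vehicle arrays. All treated arrays were lower than any Vehicle array in 2 of 9 members, Stfa3 and Ctsl (3.8% of all genes), and higher in 0 (2.67%). The median difference of the 9 members for both ligands was 0.00 log2, as was that of all genes, and 5 of 9 were below 0 (49.5% of all genes). Since these contrasts brought the set to notice, nothing further is read from the counts.

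The direct comparison of Shh with Ihh did not choose the members and was tested. By limma 0 of 9 members passed the adjusted threshold (2 of 18193 genes did, 0.011%), and 3 had an unadjusted p under 0.05 (13.1% of all genes). Ctsk was higher with Shh by 0.31 log2 (95% interval 0.10 to 0.52, unadjusted p = 0.00929, adjusted p = 0.308). Ctsd was higher with Shh by 0.20 (0.04 to 0.35, unadjusted p = 0.0172, adjusted p = 0.319). Cst3 was 0.14 lower with Shh, as a difference of -0.14 (-0.28 to -0.01, unadjusted p = 0.0374, adjusted p = 0.366). None of these 3 held up after adjustment. Over every probe set singly 0 of 17 passed (0.00444% of all probe sets).

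For Stfa3 the ligands differed by 0.25 log2 with a 95% interval of -0.38 to 0.87 (adjusted p = 0.706, limma), an interval that reaches 1.83-fold. The fit takes a single spread for all groups. The SD of Stfa3 was 0.74 with Vehicle, 0.07 with Shh and 0.11 with Ihh. Its interval and p therefore reflect mostly the spread of the Vehicle arrays. Arrays of Shh lay wholly above those of Ihh in 4 of 9 members (Stfa3, Cstb, Ctsd and Ctsk, 9.37% of all genes) and wholly below in 1 (Cst3, 7.93%). For Ctsb, Ctsl and Ctss the intervals were -0.06 to 0.17, -0.12 to 0.12 and -0.11 to 0.17 log2. Cstb differed by 0.14 (-0.01 to 0.28) and Ctsz by 0.10 (-0.03 to 0.24), and their dimmer probe sets, at 0.28 for Cstb and 0.21 and 0.19 for Ctsz, went the same way.

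**Figure D3:**
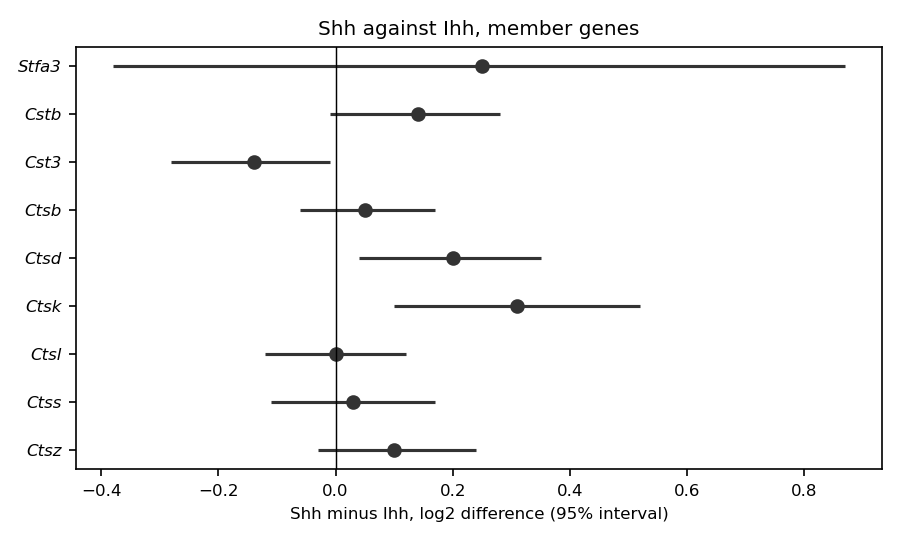
Difference between Shh and Ihh in log2 (horizontal axis, positive where Shh was higher) of the 9 member genes with 95% intervals from limma, 3 arrays a group. The intervals of Ctsk, Ctsd and Cst3 leave out 0 and none of the 9 passed the adjusted threshold.

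Genes related to the members were followed in 7 lists, 86 genes in all, chosen with earlier results of these data known. For both ligands against Vehicle 2 of the 86 rose and 2 fell by limma (4.65%, against 1.51% of all genes, 0.434% higher and 1.07% lower), and the median difference was 0.02 log2. Those that fell were a cathepsin and a cathepsin inhibitor, and those that rose belonged to lysosomes. In fits without 1 array 0 to 3 of the 86 were called, and up to 11 over all alternatives. The share is therefore a description. With Shh alone 4 rose and 2 fell (6.98%, against 1.73% of all genes), adding Hexa and Tpp1. With Ihh alone, where 0.649% of all genes were called, 0 of 86 passed. Whether Shh and Ihh differed was tested for each of these genes, and 0 of 86 passed.

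In the list of 10 other cathepsins, which included the cathepsin relatives Tinag and Tinagl1, 0 rose and 1 fell. It was Ctsc, the dipeptidyl peptidase that activates the serine proteases of immune cell granules, at 12.41 to 12.71 with Vehicle and 12.05 to 12.31 on the treated arrays (-0.41 ± 0.08 log2, SE, limma adjusted p = 0.0348). Its other 2 probe sets differed by -0.60 and -0.51. The call ended without Vehicle 1 or 2, any Shh array, Ihh 2 or Ihh 3, with an adjusted p as high as 0.171. The other genes of this list differed by -0.04 to 0.17.

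Of the 6 measured other cathepsin inhibitors 0 rose and 1 fell. It was Ctla2b, a small protein resembling the propeptide that keeps cathepsin L-like proteases inactive, at 9.33 to 9.46 with Vehicle and 8.59 to 9.20 on the treated arrays (-0.47 ± 0.09, limma adjusted p = 0.0394). Its near copy Ctla2a differed by -0.36 (adjusted p = 0.215), and whether their probes also bind the other copy was not tested. The call of Ctla2b ended without any array but Vehicle 3 or Shh 1, at up to 0.173.

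The 13 other stefins and cystatins that were measured lay below the array median on all 9 arrays, and limma called 0 of them. The smallest p was that of Csta1, a stefin in the Stfa3 cluster, at 3.47 to 3.55 with Vehicle and 3.28 to 3.45 on the treated arrays (-0.13 ± 0.05, adjusted p = 0.288). Stfa2l1, whose upstream stretch is shown above, lay at 3.83 to 4.14 with Vehicle and 4.02 to 4.36 on the treated arrays. Cst7, a cystatin of immune cells, lay at 4.66 to 4.84 and 4.46 to 4.78. None of the 8 rodent placental cathepsins was called (smallest adjusted p = 0.478, Cts8), and all 8 lay below the medians on every array.

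The lysosomal machinery around the cathepsins was followed in 3 lists. Among 20 lysosomal hydrolases 1 rose and 0 fell, namely Man2b1, an alpha-mannosidase, from 9.82 to 9.83 with Vehicle to 10.04 to 10.18 with the ligands (0.28 ± 0.05 log2, limma adjusted p = 0.0228). The call of Man2b1 ended without Vehicle 1, Vehicle 2 or Ihh 2, at up to 0.103. With Shh alone Hexa, a chain of beta-hexosaminidase, rose by 0.35 ± 0.07 (adjusted p = 0.0402) and the peptidase Tpp1 by 0.32 ± 0.07 (adjusted p = 0.0483). These calls held in 2 and 1 of 9 fits without 1 array, Hexa's without Ihh 2 or Ihh 3 and Tpp1's without Vehicle 3, with adjusted p otherwise as high as 0.144 and 0.178. On the 9 arrays the mean of the hydrolases relative to Vehicle was 0.22, 0.07 and 0.14 with Shh and 0.04, -0.06 and 0.02 with Ihh.

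Of 15 lysosomal membrane genes 1 rose and 0 fell. It was Laptm5, a lysosomal protein of blood cells, from 10.13 to 10.32 with Vehicle to 10.44 to 10.70 with the ligands (0.37 ± 0.07, limma adjusted p = 0.0347). The largest difference in these lists, that of the proton pump subunit Atp6v0d2, did not pass: it lay at 7.19 to 8.08 with Vehicle and 7.60 to 9.09 on the treated arrays (0.80 ± 0.26, adjusted p = 0.192, limma). The other 4 probe sets of Laptm5 differed by -0.02 to 0.25, and its call held only without Ihh 1, ending without any other array at up to 0.143. None of the 14 genes of lysosomal sorting, maturation and regulation was called. The smallest p among them was that of Tfe3, a transcription factor of lysosomal genes, at 8.62 to 8.71 with Vehicle and 8.29 to 8.55 on the treated arrays (-0.26 ± 0.06, adjusted p = 0.0825).

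**Figure D4:**
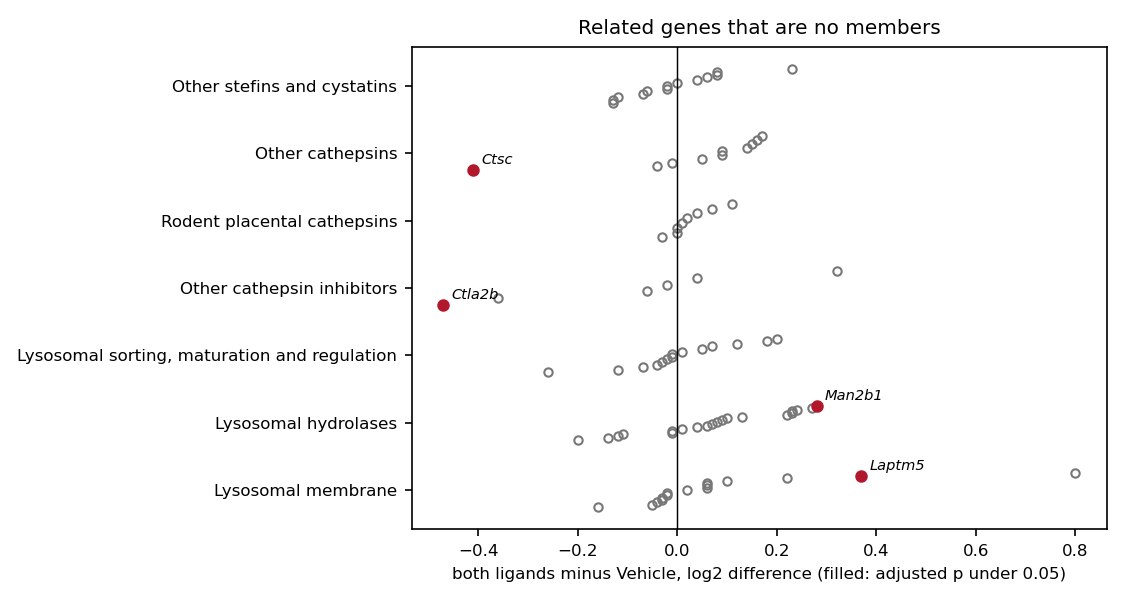
Log2 difference between both ligands and Vehicle (horizontal axis) of the 86 related genes by list, 1 point a gene, filled where the limma adjusted p was under 0.05. Ctsc and Ctla2b stand at -0.41 and -0.47, Man2b1 and Laptm5 at 0.28 and 0.37.

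Markers of cells known to make stefins and cathepsins are set beside these values, since fewer cells of a type and less RNA per cell cannot be told apart in bulk cultures. Of 11 neutrophil markers 0 rose and 1 fell, with a list mean relative to Vehicle of -0.09 to 0.10 on Vehicle arrays and -0.26 to 0.01 on treated ones. The granule genes Mpo, Elane, Ngp, Ltf and Prtn3, the receptor Cxcr2 and S100a9 lay below the array median on all 9 arrays. A fall of these genes could hardly be seen, and they weigh in the list mean. The gene that fell was Mmp8, a collagenase stored in neutrophils, at 8.06 to 8.16 with Vehicle and 6.08 to 6.87 with the ligands (-1.64 ± 0.07, limma adjusted p = 5.62e-06). The treated arrays of Mmp8 lay wholly below the Vehicle arrays, as they did in 3.8% of all genes. The remaining markers S100a8, Camp and Csf3r overlapped, with differences of -0.21, -0.31 and -0.32 (limma adjusted p = 0.852, 0.202 and 0.196). For both ligands 7 of the 11 markers were above 0.

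Of 13 macrophage markers 2 rose and 3 fell, with a list mean of -0.16 to 0.13 on Vehicle arrays and -0.20 to -0.02 on treated ones. Cd14, which presents endotoxin to Toll-like receptors, fell by 1.66 ± 0.10 log2 (limma adjusted p = 3.09e-05), Adgre1, the F4/80 antigen, by 1.04 ± 0.08 (adjusted p = 0.000269) and Lyz2, a lysozyme, by 0.26 ± 0.05 (adjusted p = 0.0494). Timd4, a receptor for dying cells, rose by 0.73 ± 0.10 (adjusted p = 0.00754) and Cx3cr1, the fractalkine receptor, by 0.87 ± 0.17 (adjusted p = 0.0384). The calls of Lyz2 and Cx3cr1 ended without Vehicle 1 or 3, Shh 2 or 3, or Ihh 2 or 3, and that of Lyz2 also without Vehicle 2 or Shh 1, at up to 0.190 and 0.167. Csf1r, a growth factor receptor of macrophages, lay at 12.04 to 12.33 with Vehicle and 12.00 to 12.35 on the treated arrays, with overlap. It was named after its values were seen and had the smallest difference of the 13, whereas others rose or fell as given above. The number of macrophages was not tested.

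Of the other markers, limma called 0 of 6 dendritic cell, 0 of 6 mast cell, 0 of 7 fibroblast, 0 of 6 smooth muscle, 0 of 7 epithelial and 0 of 5 endothelial genes for both ligands. With Shh alone 1 of the 5 endothelial genes fell, the junction protein Cdh5 (-0.59 ± 0.12, adjusted p = 0.0464), a call that ended without Vehicle 1 or 2, any Shh array or Ihh 2, at up to 0.161. All 5 endothelial markers were below 0 for both ligands, with a median of -0.27. The smallest p in each list belonged to Ccr7, Kit, Col1a1, Acta2, Krt18 and Cdh5, with differences of -0.33, -0.35, -0.57, 0.15, 0.51 and -0.42 log2. Their part in the members' values was not tested.

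**Figure D5:**
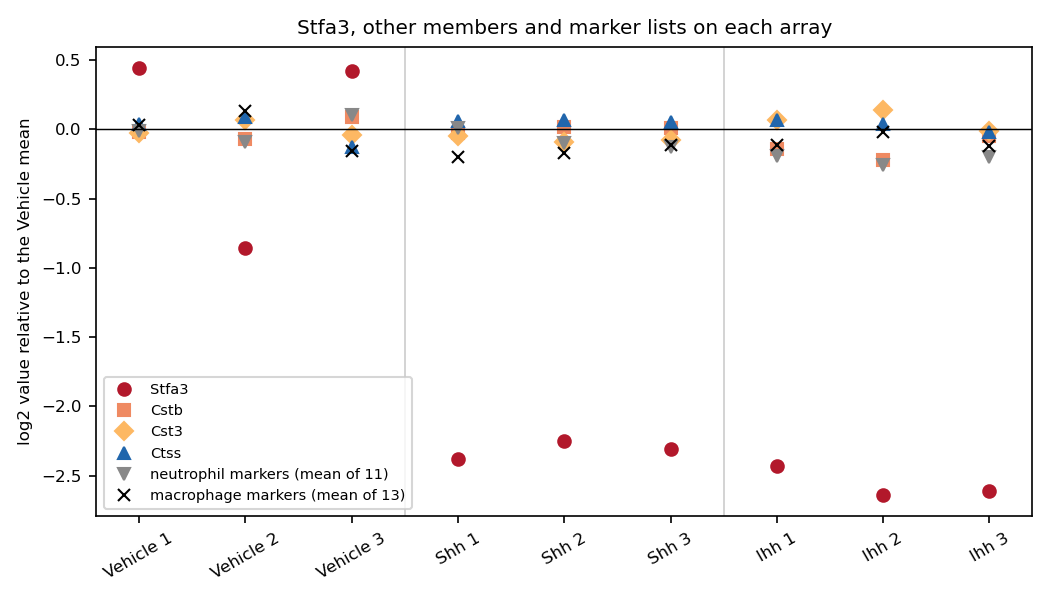
Log2 value relative to the Vehicle mean (vertical axis) on each of the 9 arrays for Stfa3, Cstb, Cst3 and Ctss and for the mean of 11 neutrophil and 13 macrophage markers. Stfa3 lies at -2.64 to -2.25 on the treated arrays, where the marker means lie between -0.26 and 0.01. Of the 11 neutrophil markers 7 lay below the array median on all 9 arrays, and the macrophage mean joins genes that rose and genes that fell. The means therefore do not measure cell numbers.

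The genes whose values relative to Vehicle lay nearest to those of Stfa3 over the 9 arrays were Clec4e, Saa3, Arg1, Slc13a3 and Cxcl3, at a root mean square distance of 0.39, 0.42, 0.47, 0.48 and 0.49 log2. Clec4e, a receptor for microbial glycolipids, lay at -2.57 to -1.60 log2 relative to the Vehicle mean on the treated arrays, beside -2.64 to -2.25 for Stfa3. Slc13a3, a transporter of dicarboxylates, and Clec4e had other probe sets with unlike values, from -1.45 to 0.15 for Slc13a3 and -0.54 for Clec4e. The nearest to Ctsk were Ccdc151, Arsg, Pou3f2, Tspan32 and Crat, at 0.06 to 0.08 log2. These distances are a description over arrays that also chose Stfa3.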

How the data were processed

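RNA of 9 samples was measured on Affymetrix arrays, from 6 ug of total RNA each per the labels' protocols. The deposited values were log2 expression for 45101 probe sets. Per the submitters' processing notes the authors used GCOS and RMA, which normalizes between arrays, with no version named. RMA makes the arrays' distributions alike, and a change common to every gene is lost.

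The members and lists were chosen with earlier results of these data known. Probe sets with 1 gene symbol (34945) were used, and 932 had several. A gene was represented by its brightest probe set by mean, giving 18193 genes, and every member probe set was also examined. All 9 arrays were fitted with limma 3.58.1 in R 4.3.3 (lmFit, eBayes), and two-sided p-values were adjusted over the 18193 genes by Benjamini-Hochberg, threshold 0.05. Named genes were all members and the called genes of each list (or the 1 with the smallest p). Also named were the 5 genes nearest to Stfa3 and to Ctsk, and the hedgehog targets Ptch1, Gli1 and Hhip. For both ligands Gli1 differed by 0.89 log2 (limma adjusted p = 0.0443, past the threshold in 2 of 9 fits without 1 array). Hhip differed by 0.58 (adjusted p = 0.0243, past it in 5 of 9). Other probe sets differed by 0.42 to 1.22 for Ptch1 and by 0.08 to 0.34 for Hhip. Hexa, Tpp1, Cdh5 with Shh, Atp6v0d2, Stfa2l1, Cst7, Ctla2a, Csf1r and the neutrophil genes other than Mmp8 were named after their values were seen. Upstream stretches were aligned with Biopython 1.88. On simulated data 88.8% of genes changed 1.5-fold and 97.5% of those changed 2-fold were recovered, for both ligands against Vehicle over 18193 genes. False calls made up 4.5%. The noise was drawn independently and the change was added in full, without compression of low values, so recovery in the measured data may be lower. Alternatives were 9 other settings and 9 fits without 1 array.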

Additional observations from a re-analysis of the deposited data

How the results depend on the processing

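Of 596 recomputed member differences, 9 newly passed the threshold, 5 no longer passed it and the others stayed on their side. Some differences near 0 changed sign, such as that of Ctsk with Ihh against Vehicle (-0.1 to 0.05). Stfa3 was past the threshold in every alternative that kept it, at -2.86 to -1.98 log2 for both ligands. The same held for Shh, at -2.74 to -1.84, and for Ihh, at -2.99 to -2.11. These contrasts brought Stfa3 to notice, so passing again on the same arrays is a description and no further support. For Shh against Ihh (0.19 to 0.31) Stfa3 passed in none. For both ligands the count of members called was 2 after a further quantile normalization, with trended and robust variance, with array weights and with every probe set singly, 3 when probe sets of a gene were averaged, and 1 to 2 without 1 array. For Shh it was 1 without dim genes, a filter that leaves out Stfa3, 3 when probe sets were averaged, 3 with every probe set singly, and 1 to 2 without 1 array. For Ihh it was 0 without dim genes. Against 4 related genes called, there were 2 after quantile normalization, 2 without less specific probe sets, 11 with array weights, and 0 to 3 without 1 array. The difference of Ctss, at 0.05, was -0.02 without Vehicle 3 and 0.09 without Vehicle 2. The wells were pooled at random, and the pairing by replicate number held in 1 of the 3 comparisons: deviations of same-numbered arrays correlated at 0.226 to 0.543 between Vehicle and Ihh, -0.158 to 0.141 between Vehicle and Shh and -0.297 to -0.0824 between Shh and Ihh. Of the arrays 6 of 9 correlated best with one of their own number. With the replicate number as a block 379 genes were called in place of 274 for both ligands, 522 in place of 314 for Shh and 122 in place of 118 for Ihh, and 1 member for both ligands, 2 for Shh, 1 for Ihh, 0 for Shh against Ihh and 3 related genes. Causes of these changes were not tested. Few arrays and compression of low values limit the precision.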
